A study of Mus musculus with 4 samples.

Results

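Heat shock proteins and chaperones were followed as 10 genes in RNA-seq libraries of sorted mouse bone marrow cells with and without Cpt1a. The labels name the cells ltHSC (long-term hematopoietic stem cells), whereas the study describes its RNA-seq as made from HSPCs, the wider class of stem and progenitor cells. The 10 genes were listed by function, with earlier results of these data known. They were matched by gene identifier among the 55401 gene models of each library. They are Hspa1a, Hspa1b, Dnajb1, Hsph1 and Hsp90aa1 of the stress-inducible cytosolic class, Hspa8 and Hsp90ab1 of the constitutive cytosolic class, Hspa5 of the endoplasmic reticulum (ER), and Hspa9 and Hspd1 of the mitochondria. A further 104 chaperone and cochaperone genes were listed around them, and 97 of these had enough counts to be tested.

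There were 2 Control and 2 KO libraries here, fewer per group than the study's text states for its RNA-seq. Control mice are labelled WT and, by the study's methods, carried the floxed Cpt1a allele (Cpt1a fl/fl), which the KO mice carried too. KO mice, labelled Cpt1a-KO, also carried Vav1-Cre, a recombinase driven in blood cells that removes the floxed part of Cpt1a. Both groups were on the C57BL/6 background with the CD45.2 allele, no treatment is given for either, and no label ties a library to an animal, so p-values measure only the spread between these libraries, which may be technical. CPT1A is the mitochondrial enzyme that couples long-chain fatty acids to carnitine for oxidation, and the comparison asks what its loss does to the transcriptome.

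Chaperones bind unfolded protein and release it for another attempt at folding. HSP70 proteins do so with ATP, helped by J-domain proteins that bring clients and by exchange factors that eject ADP, and HSP90 proteins act later on kinases, receptors and other clients. The heat shock response is run by the transcription factor HSF1, which trimerises when unfolded protein accumulates and binds inverted repeats of the letters GAA in the promoters of its targets. The ER has its own response, in which the HSP70 protein BiP (Hspa5) is a main target, and mitochondria fold imported protein with mortalin (Hspa9) and the HSP60 chaperonin (Hspd1).

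The promoters show how alike the inducible pair is and which response elements were found in the windows searched. Windows of 250 bases before the transcription start, from RefSeq (GRCm38.p6), were searched for 6 of the 10 genes. Hspa1a and Hspa1b lie on the minus strand of chromosome 17, with 9951 bases between them, and each gene model is 1 transcript as long as the gene. Dnajb1 is on the plus strand of chromosome 8. The full windows of these 3 genes are given first, since the genes stood together in the libraries. Capitals mark the 2-unit heat shock element, GAANNTTC or TTCNNGAA, where N is any base.
Hspa1a, chr17:34972157-34972406, minus strand: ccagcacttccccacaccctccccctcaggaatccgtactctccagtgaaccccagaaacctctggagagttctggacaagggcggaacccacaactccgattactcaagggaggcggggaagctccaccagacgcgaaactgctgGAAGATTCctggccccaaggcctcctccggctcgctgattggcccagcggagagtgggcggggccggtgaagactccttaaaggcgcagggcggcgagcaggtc
Hspa1b, chr17:34959239-34959488, minus strand: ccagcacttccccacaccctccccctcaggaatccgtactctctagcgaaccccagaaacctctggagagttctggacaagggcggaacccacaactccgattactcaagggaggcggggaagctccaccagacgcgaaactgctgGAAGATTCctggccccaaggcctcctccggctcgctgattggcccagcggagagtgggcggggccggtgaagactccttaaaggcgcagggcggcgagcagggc
Dnajb1, chr8:83607925-83608174, plus strand: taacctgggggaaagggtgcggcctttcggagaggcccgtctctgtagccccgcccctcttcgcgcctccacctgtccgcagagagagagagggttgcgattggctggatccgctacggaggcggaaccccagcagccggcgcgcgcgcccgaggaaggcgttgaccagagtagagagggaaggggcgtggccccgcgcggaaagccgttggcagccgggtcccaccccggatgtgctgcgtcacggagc
The Hspa1a and Hspa1b windows differed at 3 bases, C44T, T47C and T249G, counted from 1 at the 5′ end with the Hspa1a base first. The element began 104 bases before the start in both. It was absent from the Dnajb1 window, and from that of a second listed start of Dnajb1, not printed, which says only that these letters are not there. Across 32851 promoter windows, 12.8% held at least 1 such 2-unit element, on either strand, since each form is its own reverse complement.

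For Hsph1, Hspa5 and Hspd1, runs of 30 bases are given around the match, because the windows overlap longer gene models. In Hsph1 and Hspd1 the capitals again mark heat shock elements, and in Hspa5 they mark the ER stress element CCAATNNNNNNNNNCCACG, a sequence through which ATF6 acts.
Hsph1, chr5:149636351-149636380, minus strand: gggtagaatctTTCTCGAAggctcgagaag
Hspd1, chr1:55088053-55088082, minus strand: ggggccTTCCGGAAGGTTCTAGAAcggacc
Hspa5, chr2:34772020-34772049, plus strand: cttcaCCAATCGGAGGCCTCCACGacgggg
The Hspd1 run holds 3 overlapping 2-unit elements, the first beginning 144 bases before the second of its 2 listed starts. Together they make 2 overlapping matches to the 3-unit form (GAANNTTCNNGAA or TTCNNGAANNTTC), which was found in 0.466% of all windows. The ER stress element of Hspa5 began 65 bases before the start, and 0.113% of windows held one, on either strand. No window is given for Hspa8, Hsp90aa1, Hsp90ab1 and Hspa9.

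Depth and the make-up of the libraries bear on what follows. Expected counts summed to 20589218 and 23291747 in Control and to 34083159 and 33909781 in KO. Cpt1a itself lay at 37.0 and 35.6 TPM (transcript abundance, scaled for gene length and to the same sum in every library) in Control and at 11.5 and 19.2 TPM in KO, and was called lower (log2 fold change -1.60 ± 0.152 SE, edgeR adjusted p = 0.00695). Of the 9 stem cell markers fixed as a list, 8 were above 0 in every library, with Hoxb5 at 0 in KO replicate 2, but neutrophil granule genes summed to between 6228 and 11673 TPM, against 475 to 534 TPM for the stem cell markers. Some of these neutrophil genes, such as Mpo and Elane, are also expressed by progenitors, and which cells the transcripts came from was not tested. Marker sums of other cells moved with genotype. Erythroid markers summed to 1426 and 1309 TPM in Control and 576 and 633 TPM in KO, with 6 of 10 called lower. B lineage markers summed to 58.2 and 91.1 TPM in Control and 629 and 437 TPM in KO, with 9 of 9 called higher. Mast cell markers summed to 87.6 and 42.2 TPM in Control and 357 and 440 TPM in KO, with 4 of 7 called higher, and Cma1 and Tpsb2 were at 0 in both Control libraries. Of the 9 neutrophil markers 1 was called lower, with sums of 11673 and 8036 TPM in Control against 6228 and 6441 TPM in KO. Proliferation genes (1986 to 2371 TPM), stem cell markers and RNA quality genes (5 mitochondrial transcripts and Malat1, 16915 to 19530 TPM) had none called. The part of these cells in the chaperone values was not tested, and fewer cells of a type cannot be told apart from less RNA per cell.

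Control replicate 2 stood apart from the other libraries. The 12 immediate early genes, such as Fos, Jun and Egr1, which cells switch on within minutes of a stimulus, summed to 7519 TPM in it and to 676, 539 and 441 TPM in Control replicate 1 and KO replicates 1 and 2. Each of the 11 that could be tested was from 5.62-fold to 51.6-fold higher in Control replicate 2 than in Control replicate 1 in CPM (counts scaled to library size, not to length), while KO replicate 2 stood at 0.609-fold to 1.24-fold of KO replicate 1. None of the 11 was called between genotypes. Control replicate 2 also had the lowest sum of RNA quality genes, at 16915 TPM against 18726 to 19530 TPM in the others. Its Malat1 was the highest, at 501 TPM against 203 to 340 TPM. What these differences mean for the chaperone values was not tested. Chaperone values are therefore given with and without this library.

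The 10 chaperone genes took 0.866% and 0.998% of all TPM in Control and 0.799% and 0.819% in KO. By mean TPM over the 4 libraries the order was Hspa8 (2962 TPM, range 2738 to 3212), Hsp90ab1 (2762, range 2564 to 2964), Hsp90aa1 (974, range 794 to 1123), Hspa5 (471, range 418 to 557), Hspd1 (461, range 436 to 517), Hspa1b (349, range 213 to 679), Hspa9 (292, range 280 to 308), Hspa1a (234, range 119 to 538), Hsph1 (134, range 120 to 159) and Dnajb1 (68.5, range 36.1 to 146). The constitutive pair and Hsp90aa1 were each clear of the next class, since the lowest Hsp90aa1 library lay above the highest of any gene ranked under it, and the lowest Hsp90ab1 library lay above the highest Hsp90aa1 library. Below that the neighbours overlapped. Hspa8 and Hsp90ab1 overlapped each other, as did Hspa5 and Hspd1, and Hspa1b spanned the whole range of Hspa9.

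**Figure D1:**
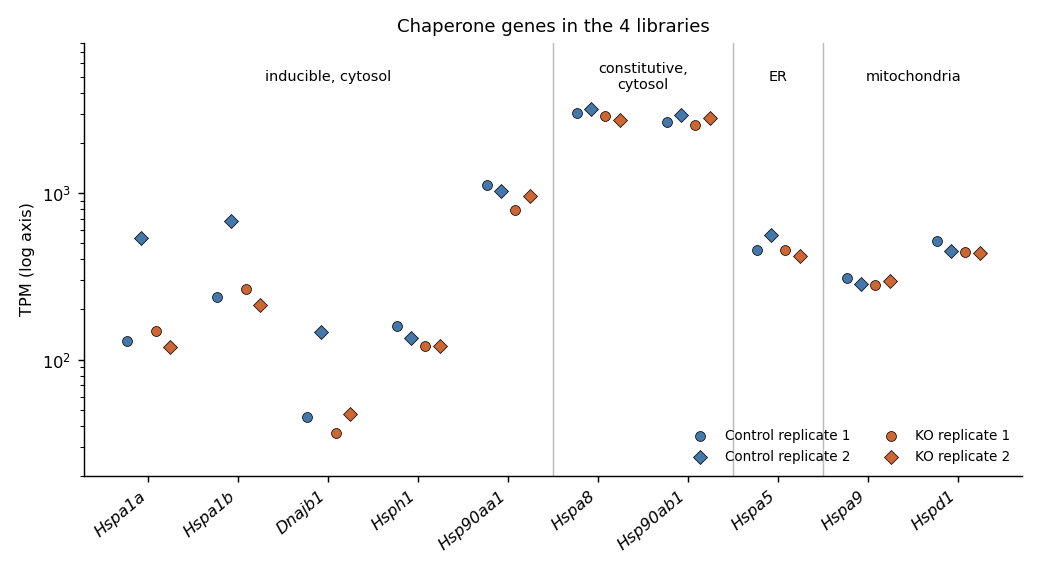
TPM of the 10 chaperone genes on a log axis, 1 point per library, with Control in blue and KO in orange, circles for replicate 1 and diamonds for replicate 2, and classes parted by grey lines. Control replicate 2 stands above the other 3 libraries for Hspa1a (538 TPM), Hspa1b (679 TPM) and Dnajb1 (146 TPM), and the libraries lie close together for the other genes.

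Between genotypes, none of the 10 chaperone genes passed the test (edgeR quasi-likelihood, Benjamini-Hochberg adjusted p under 0.05 over all 14635 genes), higher or lower. The same test called 0.451% of all genes tested higher in KO and 0.212% lower. All 10 fitted log2 fold changes (KO over Control) were below 0, from -1.37 to -0.02, with a median of -0.20 against 0.01 over all genes tested, but 4 of them (Hspa1a, Hsph1, Hspa8 and Hsp90ab1) lay between 0.00 and 0.12 without Control replicate 2. At an unadjusted p under 0.05 there were 2 genes, Hsp90aa1 and Hspa5, beside 10.4% of all genes tested. DESeq2, the tool of the study's methods, called these same 2 lower at an adjusted p under 0.05. It called 3.24% of all genes to which it gave an adjusted p lower. The study's own rule was an unadjusted p under 0.05 with an absolute log2 fold change over 1. Neither gene reached that fold limit, at -0.22 for Hsp90aa1 and -0.29 for Hspa5 in DESeq2.

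**Figure D2:**
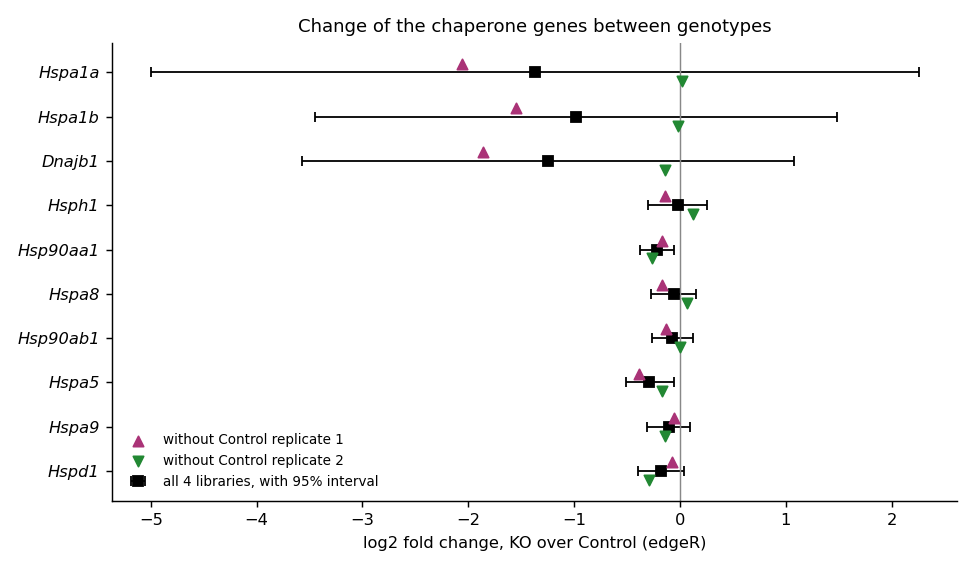
Log2 fold change of each chaperone gene, KO over Control, from edgeR. Black squares with bars are the estimate and its 95% interval from all 4 libraries, triangles pointing up the estimate without Control replicate 1 and triangles pointing down that without Control replicate 2. For Hspa1a the interval runs from -5.00 to 2.26, and the estimate moves from -2.06 to 0.02 with the Control library left out.

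Hspa1a and Hspa1b encode the same inducible cytosolic HSP70, which is low in resting cells and surges after heat or other stress. Hspa1a read 130 and 538 TPM in Control replicates 1 and 2, and 149 and 119 TPM in KO replicates 1 and 2. Hspa1b read 238 and 679 TPM in Control, and 266 and 213 TPM in KO. In both genes Control replicate 2 alone was high, and Control replicate 1 lay between the KO libraries. The log2 fold change was -1.37 ± 0.956 (SE) for Hspa1a (edgeR adjusted p = 0.776) and -0.98 ± 0.692 for Hspa1b (adjusted p = 0.772), with intervals of -5.00 to 2.26 and -3.45 to 1.48.

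Dnajb1, the J-domain protein HSP40 that stimulates HSP70 and recycles it, followed the same libraries. It read 45.2 and 146 TPM in Control and 36.1 and 47.0 TPM in KO. Again Control replicate 2 alone was high, and the other Control library lay between the KO libraries. KO against Control gave a log2 fold change of -1.25 ± 0.723 (edgeR adjusted p = 0.690), with an interval of -3.57 to 1.08.

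The calls of these 3 genes turned on 1 Control library. Without Control replicate 1, edgeR called Hspa1a (-2.06, adjusted p = 2.90e-07), Hspa1b (-1.55, adjusted p = 3.95e-06) and Dnajb1 (-1.86, adjusted p = 1.53e-05) lower in KO, beside 0.893% of all genes tested called lower in that fit. In it the lone Control library is assumed to vary like the KO libraries. Without Control replicate 2 the fold changes were 0.02, -0.02 and -0.14, and none of the 10 was called. In the other 3 libraries the levels ran from 119 to 149 TPM for Hspa1a, from 213 to 266 TPM for Hspa1b and from 36.1 to 47.0 TPM for Dnajb1.

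The same pattern stands out when libraries of 1 group are compared. In CPM, Control replicate 2 exceeded Control replicate 1 by 4.22-fold for Hspa1a, 2.91-fold for Hspa1b and 3.29-fold for Dnajb1. The ratio of the KO libraries, replicate 2 over replicate 1, was 0.821, 0.824 and 1.33. The other 7 genes kept between 0.862-fold and 1.20-fold in Control and between 0.952-fold and 1.15-fold in KO. Of all genes tested, 6.37% had a larger Control ratio than Hspa1a, 7.78% than Hspa1b and 7.24% than Dnajb1, which is 932 to 1138 genes.

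**Figure D3:**
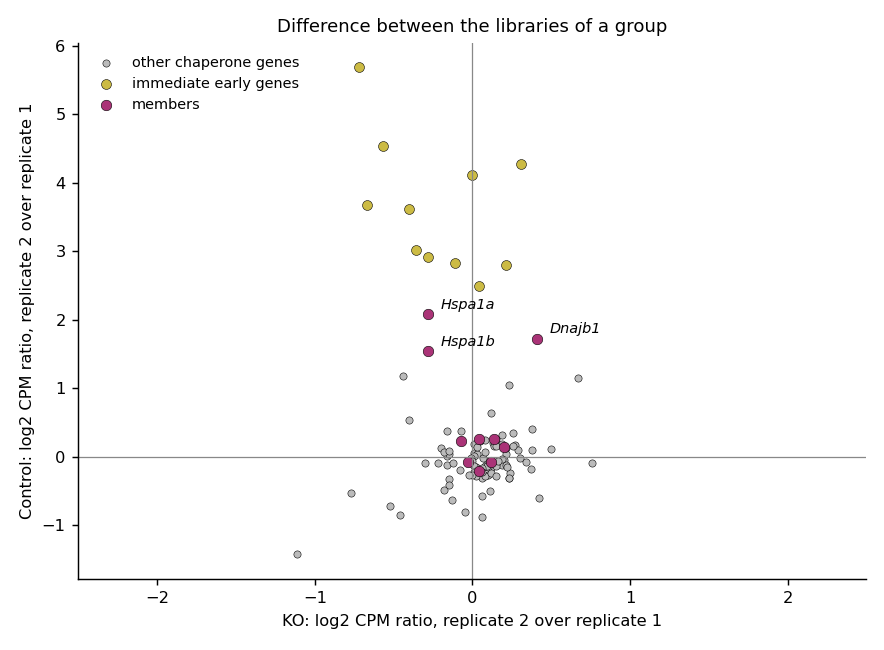
Log2 CPM ratio of replicate 2 over replicate 1, in KO on the horizontal axis and in Control on the vertical axis, with 0.1 CPM added, for the 10 chaperone genes (purple), the other tested chaperone genes (grey) and immediate early genes (yellow). Hspa1a (2.08), Hspa1b (1.54) and Dnajb1 (1.72) lie above the other chaperone genes and below the immediate early genes on the Control axis. Hspb1, Hspb8 and Hspa12a, at 0 in at least 1 library, are not drawn.

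The split of the pair between its 2 copies also differed in that library. Hspa1a took 45.8% of the counts of the pair in Control replicate 2 (exact binomial 95% interval 45.3% to 46.2%), against 36.8% in Control replicate 1 (36.0% to 37.6%), 37.4% in KO replicate 1 (36.8% to 37.9%) and 37.3% in KO replicate 2 (36.6% to 37.9%). The other 3 libraries overlapped each other. These intervals cover counting error only. Of the stretches of 75 bases in the Hspa1a transcript, 52.7% occur in Hspa1b, and 55.8% of those in Hspa1b occur in Hspa1a, so that much of the split was estimated by RSEM and single-copy values are uncertain. The posterior SD that RSEM gives for the Hspa1a count was 74.0 counts or less against 5279 to 24682 counts. Summed, the pair read 368 and 1217 TPM in Control and 415 and 332 TPM in KO, and its log2 fold change was -1.14 (edgeR adjusted p = 0.785).

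**Figure D4:**
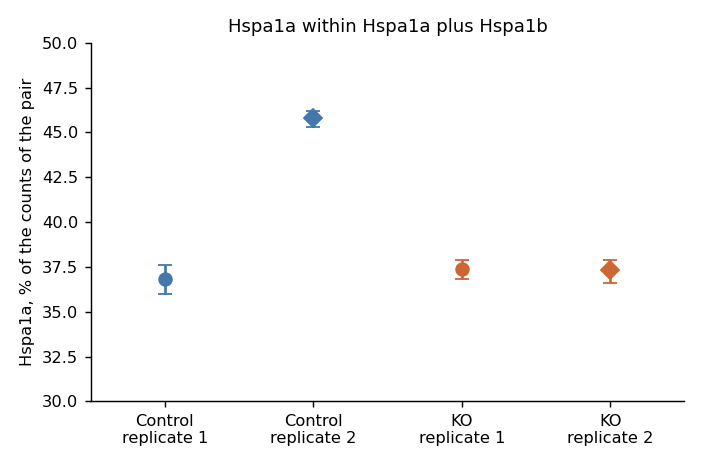
Share of Hspa1a in the expected counts of Hspa1a plus Hspa1b, in percent, with exact binomial 95% intervals, on an axis from 30 to 50. Control replicate 2 stands at 45.8% and the other 3 libraries between 36.8% and 37.4%.

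Set against the constitutive HSP70, the inducible pair was 12.2% of the Hspa8 TPM in Control replicate 1, 37.9% in Control replicate 2, 14.4% in KO replicate 1 and 12.1% in KO replicate 2. Most HSP70 transcript was therefore Hspa8 in every library.

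Hsph1 encodes HSP110, an exchange factor that also holds unfolded protein. It read 159 and 134 TPM in Control and 121 and 120 TPM in KO, and the groups did not overlap. In CPM it read 168 and 202 in Control and 180 and 185 in KO, and the groups did overlap. On counts, the log2 fold change was -0.02 ± 0.120 (edgeR adjusted p = 0.987), and with the effective lengths that RSEM gave it was -0.29 (adjusted p = 0.598). That length was 1470 bases in Control replicate 1 and between 2041 and 2129 bases in the other 3 libraries. Control replicate 2, whose length was close to that of the KO libraries, was above them in CPM as well as in TPM.

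Hsp90aa1 encodes the stress-responsive HSP90α. It read 1123 and 1024 TPM in Control and 794 and 954 TPM in KO. In CPM it read 1650 and 1558 in Control and 1390 and 1363 in KO. On both scales each KO library lay below each Control library. The log2 fold change was -0.22 ± 0.0708, with an interval of -0.38 to -0.06, an unadjusted p of 0.0145 and an adjusted p of 0.356 in edgeR, and DESeq2 gave an adjusted p of 0.00911. The estimate kept its sign without either Control library, at -0.17 and -0.26. Pseudogenes share its sequence, with 36.2% of its stretches of 75 bases found in Gm12346 and 22.1% in Gm5844. The share of its stretches found in any other gene model was 15.5% in its least shared transcript, the posterior SD was at most 0.0183% of its count, and the log2 fold change on posterior mean counts was also -0.22.

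Hspa8 and Hsp90ab1, the constitutive HSP70 and HSP90β of every cell, were the highest of the 10. Hspa8 read 3009 and 3212 TPM in Control and 2887 and 2738 TPM in KO. Hsp90ab1 read 2676 and 2964 TPM in Control and 2564 and 2843 TPM in KO. Hspa8 had both KO libraries below both Control libraries in TPM but not in CPM, and Hsp90ab1 overlapped on both scales. The log2 fold changes were -0.06 ± 0.0917 (interval -0.27 to 0.15, edgeR adjusted p = 0.925) and -0.07 ± 0.0822 (interval -0.26 to 0.12, adjusted p = 0.891). Without Control replicate 2 they were 0.07 and 0.00, so no direction is given. The pseudogene Gm15459 holds 30.2% of the Hspa8 stretches, and the posterior SD was at most 0.0173% of its count.

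Hspa5 encodes BiP, the ER HSP70 that keeps the stress sensors of that organelle silent while it is free to bind them. It read 455 and 557 TPM in Control and 455 and 418 TPM in KO, so the groups overlapped in TPM. In CPM it read 834 and 978 in Control and 760 and 724 in KO, with both KO libraries the lower. The log2 fold change was -0.29 ± 0.0968, with an interval of -0.51 to -0.06, an unadjusted p of 0.0181 and an adjusted p of 0.384 in edgeR, and DESeq2 gave an adjusted p of 0.0228. It was -0.39 without Control replicate 1 and -0.17 without Control replicate 2.

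Hspd1, the HSP60 subunit that closes a folding chamber around imported protein, read 517 and 448 TPM in Control and 441 and 436 TPM in KO. Both KO libraries lay below both Control libraries, in TPM and in CPM. Its log2 fold change was -0.18 ± 0.0951 (interval -0.40 to 0.04, edgeR adjusted p = 0.559). It was -0.07 without Control replicate 1 and -0.29 without Control replicate 2. Its pseudogene Hspd1-ps3 holds 28.6% of its stretches, and the posterior SD was at most 0.00735% of its count.

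Hspa9, the mitochondrial HSP70 that pulls protein through the import channel, had the narrowest range of the 10 in TPM, at 308 and 283 TPM in Control and 280 and 296 TPM in KO. The groups overlapped in TPM, and in CPM (605 and 574 against 526 and 573) they were just apart. Its log2 fold change was -0.10 ± 0.0887 (interval -0.31 to 0.10, edgeR adjusted p = 0.787), and it was -0.06 and -0.14 without Control replicates 1 and 2.

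By class, the inducible genes summed to 1694 and 2521 TPM in Control and 1366 and 1454 TPM in KO. The constitutive pair summed to 5685 and 6176 TPM in Control and 5451 and 5581 TPM in KO. The mitochondrial pair summed to 825 and 731 TPM in Control and 721 and 733 TPM in KO. Only the inducible sum had 1 Control library far from the others, and without Hspa1a, Hspa1b and Dnajb1 the other 7 genes summed to 8246 and 8622 TPM in Control and 7543 and 7806 TPM in KO. In TPM both KO libraries were below both Control libraries for 4 of the 10 genes, Hsp90aa1, Hspa8, Hspd1 and Hsph1, beside 16.8% of all genes tested. In CPM it was also 4, Hsp90aa1, Hspa5, Hspa9 and Hspd1, beside 19.3% of all genes tested. TPM, unlike CPM, rests on RSEM's effective length in each library. The longest exceeded the shortest by 44.9% for Hsph1, 25.9% for Hsp90aa1, 21.3% for Hspa8 and 2.75% for Hspd1. No gene of the 10 had both KO libraries above both Control libraries on either scale, against 23.1% of all genes tested in TPM and 22.7% in CPM.

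Around the 10 genes, none of the 97 other chaperone and cochaperone genes tested was called by edgeR. Of them 9 had an unadjusted p under 0.05, beside 10.4% of all genes tested. The median log2 fold change of the 97 was -0.06, with 33 above 0 and 64 below. Over all genes tested the median was 0.01, with 7452 above 0 and 7183 below. DESeq2 gave a fold change for 99 of the other chaperone and cochaperone genes. It called 4 lower (Sgta, Fkbp4, P4hb and Hyou1) and 2 higher (Hspb8 and Hspa12a). Of all genes to which it gave an adjusted p, 3.24% were called lower and 3.96% higher.

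**Figure D5:**
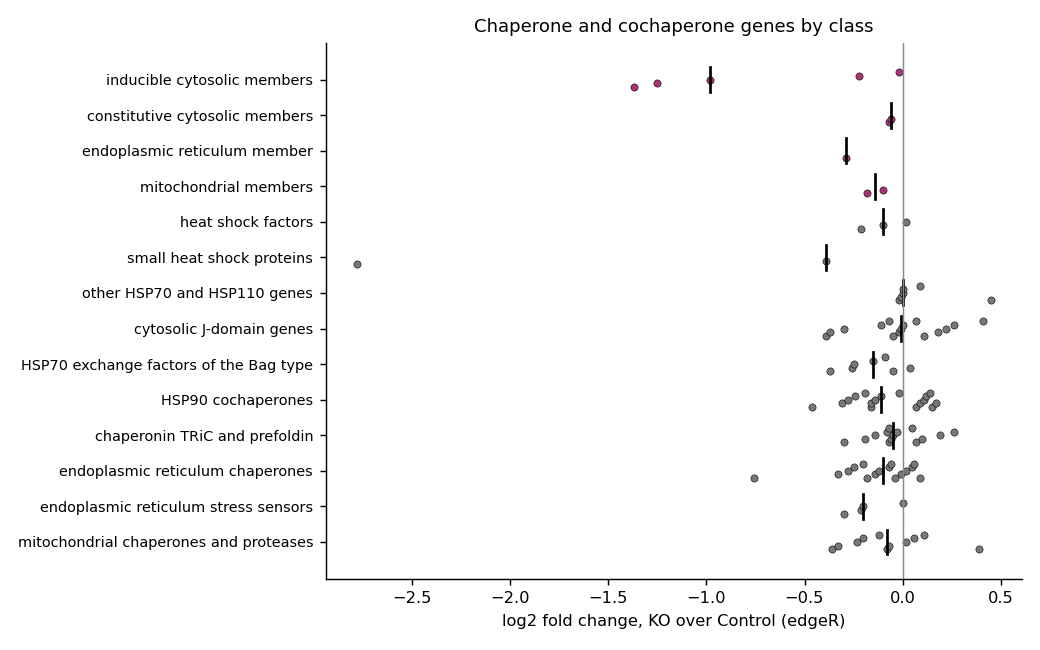
Log2 fold change, KO over Control, of the tested chaperone and cochaperone genes by class, with the 10 followed genes in purple, the others in grey and a black line at the median of each class. Hspb8 and Hspa12a, with no count in Control, are not drawn but stand in the medians. Most points lie between -0.5 and 0.5, and the lowest are Hspb1 (-2.78), Hspa1a (-1.37) and Dnajb1 (-1.25).

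Of the regulators, Hsf1, which turns on the heat shock genes, read 56.0 and 64.1 TPM in Control and 54.2 and 56.8 TPM in KO (log2 fold change -0.21 ± 0.148, edgeR adjusted p = 0.707). Hsbp1, which binds HSF1 and restrains it, was at -0.10 ± 0.153 (adjusted p = 0.925). Of the 4 genes listed here (Hsf1, Hsf2, Hsf4 and Hsbp1), all but Hsf4 were tested and none was called.

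Of the 8 small heat shock protein genes, which hold unfolded protein without ATP, 3 were tested and none was called. Hspb1 (HSP27) had 0, 325, 71 and 0 counts in Control replicates 1 and 2 and KO replicates 1 and 2. Control replicate 2 was again the highest, at least 95.9-fold above Control replicate 1 when the latter is set at a floor of 3 counts in the library. Its log2 fold change between genotypes was -2.78 ± 3.04 (edgeR adjusted p = 0.877). Hspb8 had no count in Control and 86 and 30 in KO, at least 25.0-fold higher in KO with the Control group set at a floor of 3 counts (edgeR adjusted p = 0.421).

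Of the 8 other HSP70 and HSP110 genes 7 were tested, with a median log2 fold change of 0.00 and none called. Hspa12a had no count in Control and 25 and 74 in KO, at least 21.3-fold higher in KO against the same floor (edgeR adjusted p = 0.438). Hspa2 read 5.27 and 8.07 TPM in Control and 9.09 and 9.62 TPM in KO (0.45 ± 0.353, adjusted p = 0.751). Hspa1l, which shares sequence with the inducible pair and lies next to Hspa1a on the other strand, had no count in any library.

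The 15 J-domain genes listed as cytosolic, partners of HSP70, were all tested, with none called and a median of -0.01. The highest in TPM were Dnaja1, at 351 and 304 TPM in Control and 359 and 305 TPM in KO, and Dnajc8, at 226 and 228 TPM in Control and 227 and 248 TPM in KO. The smallest p-values belonged to Dnajc21 (0.41 ± 0.211, edgeR adjusted p = 0.557) and Dnajc7 (0.18 ± 0.116, adjusted p = 0.665). Dnajb4 and Dnaja4, named after their values were seen, were 2.22-fold and 2.07-fold higher in Control replicate 2 than in Control replicate 1. In KO the same ratios were 1.59-fold and 1.17-fold. Of the 97 other chaperone and cochaperone genes tested, 4 were over 2-fold higher in Control replicate 2 than in Control replicate 1. Hspb6 alone was over 2-fold lower (0.37-fold). Together they are 5.15% of the 97, beside 19.5% of all genes tested. The 7 HSP70 exchange factors listed, Bag1 to Bag6 and Hspbp1, had none called. Bag3, a partner of HSP70 that HSF1 induces, read 12.7 and 13.3 TPM in Control and 9.10 and 11.6 TPM in KO (-0.37 ± 0.273, edgeR adjusted p = 0.724), so it was not high in Control replicate 2. Bag5 was at -0.26 ± 0.194 (adjusted p = 0.733).

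Of the 17 HSP90 cochaperones, all tested, none was called and the median was -0.11. Sgta, a cochaperone in the delivery of tail-anchored proteins, had the smallest p, with 92.4 and 79.9 TPM in Control and 64.4 and 57.6 TPM in KO and no overlap (-0.46 ± 0.138, unadjusted p = 0.0103, edgeR adjusted p = 0.316). Fkbp4, the FKBP52 immunophilin of steroid receptor complexes, read 398 and 455 TPM in Control and 359 and 407 TPM in KO (-0.28 ± 0.0987, adjusted p = 0.413). Cdc37, which brings kinases to HSP90, read 430 and 460 TPM in Control and 416 and 461 TPM in KO (-0.16 ± 0.101, adjusted p = 0.636). The 14 genes of the TRiC chaperonin and of prefoldin, which fold actin and tubulin, had a median of -0.05 and none called. Among them were Cct3 (-0.07 ± 0.0858), Cct5 (-0.14 ± 0.0864), Cct7 (-0.19 ± 0.0888, adjusted p = 0.521) and Pfdn2 (0.26 ± 0.156, adjusted p = 0.614).

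Of the 16 other ER chaperones, 12 had a log2 fold change below 0, the median was -0.10 and none was called. P4hb, the protein disulfide isomerase, read 396 and 364 TPM in Control and 312 and 318 TPM in KO with no overlap (-0.33 ± 0.106, unadjusted p = 0.0146, edgeR adjusted p = 0.356). Without Control replicate 2 it was called lower, in a fit that called 0.828% of all genes tested lower. Hyou1, the ER HSP110, read 111 and 118 TPM in Control and 87.4 and 99.9 TPM in KO (-0.28 ± 0.10, adjusted p = 0.410). The most abundant, Calr and Hsp90b1, were at -0.07 ± 0.0853 and -0.04 ± 0.105. Dnajb9, an ER J-domain gene named after its values were seen, read 11.1 and 24.8 TPM in Control and 12.7 and 9.12 TPM in KO, and was called lower only without Control replicate 1. The ER stress sensors had none of 4 called, with Ern1 (IRE1α) at -0.30 ± 0.118 (adjusted p = 0.447) and Xbp1, whose transcript IRE1α splices, at -0.21 ± 0.154 (adjusted p = 0.718).

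Of the 11 other mitochondrial chaperones and proteases none was called, with a median of -0.08. Hspe1, the HSP10 lid of HSP60, read 361 and 453 TPM in Control and 382 and 360 TPM in KO (-0.20 ± 0.143, edgeR adjusted p = 0.707). Trap1, the mitochondrial HSP90, was at -0.07 ± 0.119. Dnaja3, the J-domain partner of mortalin, read 54.9 and 50.2 TPM in Control and 45.4 and 39.9 TPM in KO (-0.33 ± 0.136, adjusted p = 0.460), and Clpp, a matrix protease, was at -0.36 ± 0.203 (adjusted p = 0.596).

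The genes nearest in pattern were taken as those whose log2(TPM + 1), centred on its own mean over the 4 libraries, differed least by root mean square among 9019 genes of at least 10 TPM on average. For the summed Hspa1a and Hspa1b these were Sik1 (0.122), Zkscan5 (0.137), Gtf2e2 (0.140), Furin (0.146) and Sqor (0.150), and Sik1 read 13.5 and 47.5 TPM in Control and 12.5 and 12.2 TPM in KO. For Hspa5 they were Klf13 (0.00401), Prmt1 (0.0143), Tspan31 (0.0155), Atg14 (0.0189) and Surf2 (0.0203). For Hspd1 they were Slc3a2 (0.00774), Gm10288 (0.0134), Utp14a (0.0137), Zswim4 (0.0142) and Rbbp4 (0.0152). With 4 libraries such likeness is a description, and no gene was tested for it.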

How the data were processed

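RNA of sorted bone marrow cells labelled ltHSC was measured in 2 Control and 2 KO libraries. Per the labels, cells were kept in RNAlater after sorting, and polyadenylated RNA was made into directional libraries. STAR, RSEM and the mm10 build stand in the submitters' processing notes. Tool versions, annotation and strand setting: not given in the sources used here. The authors deposited, per gene, the expected count, which RSEM estimates by dividing shared reads among genes, is not normalized and need not be whole, and TPM, scaled to 1 sum per library and per effective length. RSEM's posterior mean count, its SD and the effective length came from the same deposited files.

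GENCODE M21 (GRCm38) gave symbols to 55141 of the 55401 gene models, 54349 with the same version. Expected counts, rounded, were tested with edgeR 4.0.16 in R 4.3.3 (quasi-likelihood, robust, TMM factors of 0.985 to 1.01, filterByExpr at a minimum count of 10, genotype as the only term), two-sided, with Benjamini-Hochberg adjustment over 14635 genes and no fold limit. The SE is the unshrunk coefficient over the square root of F, and is not given where a group had no count. DESeq2 1.42.0, limma 3.58.1 on log2(TPM + 1) and 0.1, other scalings and filters, summed copies and leaving out each library were alternatives. Only the main edgeR fit, DESeq2 and limma were run on simulated data, of 2 against 2 libraries. The simulated spread between libraries was below that of these data (common dispersion 0.222). Fits that left out a library, and the other alternatives, were not simulated. An exact permutation test of 2 against 2 cannot go below p = 0.333. Depth was 20589218 to 34083159 expected counts per library, and floors are 3 counts and cover counting error only.

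Promoter windows on chromosome 18 were left out of the motif shares. Named genes are the 10, then in each other list the genes called, or else the 2 with the smallest p, and in lists of at least 10 the 2 with the highest mean TPM. Members, lists and tests were chosen with earlier results of these data known. The deposited values were also checked for pairing of equal replicate numbers: the deviations of same-numbered libraries correlated at -0.0252 across genes, and the labels give no shared animal or batch.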

Additional observations from a re-analysis of the deposited data

How the results depend on the processing

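The count of followed chaperone genes called was 0 in edgeR and moved to 2 with DESeq2 (Hsp90aa1 and Hspa5), and ranged from 0 to 3 with 1 library left out, the 3 being Hspa1a, Hspa1b and Dnajb1 without Control replicate 1. The count of other chaperone genes moved from 0 to 6 with DESeq2 and ranged from 0 to 1 with 1 library left out (Dnajb9 without Control replicate 1, P4hb without Control replicate 2). The cause of the DESeq2 difference was not tested. Of 159 alternative values of the 10 log2 fold changes, 148 kept their direction and their side of the threshold, 5 passed it in the same direction and 6 changed sign. Without Control replicate 2 Hspa1a went from -1.37 to 0.02, Hsph1 from -0.02 to 0.12, Hspa8 from -0.06 to 0.07 and Hsp90ab1 from -0.07 to 0.00, and without KO replicate 1 Hspa8 and Hsp90ab1 were at 0.01 and 0.03. With each library left out in turn the range was -2.06 to 0.02 for Hspa1a, -0.14 to 0.12 for Hsph1, -0.17 to 0.07 for Hspa8 and -0.16 to 0.03 for Hsp90ab1. Outside DESeq2 and the fits that left out a Control library, limma, the other scalings, filters, posterior mean counts, effective lengths and summed copies called 0 of the 10 genes. With replicate number as a replicate block, 0 of the 10 and 0 of the other chaperone genes were called, and Hspa1a stood at -1.03. With 2 libraries a group, the edgeR p-values draw on a spread pooled over genes as well as on each gene's own spread. The robust fit gives the pooled spread less weight for genes of outlying spread. For Hspa1a, Hspa1b and Dnajb1, which had wide intervals, the p-values thus rest largely on the spread of their own 2 Control libraries. The separate values of Hspa1a and Hspa1b rest on RSEM's division of reads.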
